A study of Mus musculus with 11 samples.

Results

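The 8 genes described here encode receptors that steer B cells through lymphoid tissue and out of it: Cxcr5, Cxcr4, Cxcr3, Ccr7, Ccr6, S1pr1, S1pr2 and Gpr183. They were chosen by name among the 22208 protein-coding genes that GENCODE M1 places on the mouse build mm9. A binding site was assigned to a gene when its peak position lay in the gene or within 20 kb of it. Distance alone set the assignment, and whether a site acts on its gene was not measured. The positions came from chromatin immunoprecipitation with sequencing (ChIP-seq), which recovers the DNA that a protein occupies. Antibodies to the transcription factors IRF4 (3 libraries per day) and PU.1 (2 libraries per day) were used on day 1 and on day 3 of culture. All 4 groups shared the same cells and stimulus. The cells were mature splenic B lymphocytes, resting when purified, from 129 strain mice with the B1-8i gene-targeted antibody, whose receptor recognises the hapten NP. The stimulus was NP-Ficoll at 0.01 ng/mL as the antigen, joined by CD40L and by IL-4, IL-5 and IL-2. Day 1 cells were labelled as activated and day 3 cells as having undergone plasma cell differentiation. The labels name no purification of plasma cells at day 3. All libraries came from cells of this 1 genotype under this 1 stimulus in a dish. Values are from bulk cultures, in which a site bound in more cells and a site bound more strongly in each cell cannot be told apart.

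Homing receptors are G protein-coupled receptors that read gradients of chemokines, of the lipid sphingosine 1-phosphate or of oxysterols. CXCR5 draws B cells to CXCL13 in follicles, CCR7 draws them to CCL19 and CCL21 at the border of the T cell zone, GPR183 (EBI2) reads an oxysterol in the outer follicle, S1PR1 lets lymphocytes leave for blood or lymph, and S1PR2 holds cells in the germinal centre. CXCR4 answers CXCL12 in germinal centre dark zones and bone marrow, CXCR3 is a receptor for interferon-induced chemokines and CCR6 is the receptor for CCL20. IRF4 binds many sites beside a partner factor, among them the Ets factor PU.1 on a composite DNA element, and plasma cells hold more IRF4 than activated B cells.

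In the group lists, which hold 1 set of peaks per factor and day, IRF4 peaks lay at 5 of the 8 genes on day 1 (10.0% of all genes had one) and at 5 of 8 on day 3 (8.47%). They were the same genes on both days, Cxcr5, Cxcr4, Ccr7, Ccr6 and S1pr1. PU.1 peaks lay at all 8 genes on both days, where 52.3% of all genes had one on day 1 and 54.4% on day 3. Cxcr3, S1pr2 and Gpr183 had PU.1 peaks and no IRF4 peak in these lists. On each day, 6 of the 8 genes had a peak in at least 2 IRF4 library lists, for which no share over all genes is given. To leave 1 library out, the list was rebuilt from peaks with a partner within 200 bp in another remaining library. The IRF4 counts changed under this rule. With day 1 replicate 2 or day 1 replicate 3 left out, 1 gene was bound on day 1. In both cases the short list of day 1 replicate 1 (825 peaks) had to hold the partner. Without day 1 replicate 1 it was 5 genes. With any of the 3 day 3 replicates left out, 3 genes were bound on day 3. Shares over all genes are not given for the rebuilt lists either.

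The sites at which IRF4 was found most often, and 3 of the 4 found in at least 2 libraries of 1 day and none of the other, are shown first as sequence, 200 bases each around the peak position, on the plus strand of the mm9 reference, which is not the 129 strain's own sequence. Capitals mark the Ets-IRF composite element (EICE), which is GGAA, any 2 bases and GAAA, on either strand. Its GGAA is the Ets part and its GAAA the IRF part. A window with no capitals holds no EICE. The first 3 windows were called in 5 of 6 IRF4 libraries, and the last 3 in 2 libraries of 1 day.
Ccr6, 1.4 kb upstream, chr17:8427539-8427738: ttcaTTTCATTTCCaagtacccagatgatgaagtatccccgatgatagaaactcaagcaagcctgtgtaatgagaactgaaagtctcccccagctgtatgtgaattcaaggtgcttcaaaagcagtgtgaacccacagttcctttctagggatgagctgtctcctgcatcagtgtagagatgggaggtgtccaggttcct
Ccr7, 13.0 kb upstream, chr11:99029328-99029527: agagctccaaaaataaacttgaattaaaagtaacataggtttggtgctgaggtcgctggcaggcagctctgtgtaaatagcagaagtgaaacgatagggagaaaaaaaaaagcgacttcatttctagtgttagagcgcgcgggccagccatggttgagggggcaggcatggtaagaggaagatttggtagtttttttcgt
S1pr1, 14.3 kb upstream, chr3:115432201-115432400: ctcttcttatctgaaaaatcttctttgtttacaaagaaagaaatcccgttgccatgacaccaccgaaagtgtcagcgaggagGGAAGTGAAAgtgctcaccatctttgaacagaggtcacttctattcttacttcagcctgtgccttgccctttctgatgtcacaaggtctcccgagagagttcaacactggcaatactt
Ccr6, 3.9 kb upstream, IRF4 on day 3 only, chr17:8425037-8425236: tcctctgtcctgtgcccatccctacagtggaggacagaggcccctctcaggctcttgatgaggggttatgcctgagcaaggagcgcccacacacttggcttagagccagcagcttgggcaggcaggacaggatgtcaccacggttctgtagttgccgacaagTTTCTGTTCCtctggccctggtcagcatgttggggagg
Cxcr4, 19.6 kb upstream, IRF4 on day 1 only, chr1:130508402-130508601: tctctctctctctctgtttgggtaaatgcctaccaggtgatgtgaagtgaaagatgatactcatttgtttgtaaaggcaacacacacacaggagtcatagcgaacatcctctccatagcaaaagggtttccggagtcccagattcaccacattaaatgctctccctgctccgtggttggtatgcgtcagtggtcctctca
S1pr1, 12.9 kb downstream of the start, IRF4 on day 1 only, chr3:115404998-115405197: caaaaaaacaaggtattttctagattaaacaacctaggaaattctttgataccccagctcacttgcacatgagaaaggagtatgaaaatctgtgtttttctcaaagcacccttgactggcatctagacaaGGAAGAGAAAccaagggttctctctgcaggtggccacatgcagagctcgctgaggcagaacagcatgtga
In 4 of these windows an EICE was present, on the minus strand at both Ccr6 sites and on the plus strand at both S1pr1 sites. The Ccr7 window held AGAAGTGAAA, which differs from the EICE by G1A, and the Cxcr4 window held TGAAGTGAAA, which differs by G1T. Positions in these tokens count from 1 at the 5′ end of the element, with the element's base first. A match is a description of the letters and not a shown binding site.

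The libraries differed in how many peaks they held, and the values below are given with that in view. IRF4 lists ran from 825 peaks (day 1 replicate 1) to 9326 (day 1 replicate 2), and PU.1 lists from 27321 to 38052. The lowest enrichment listed was 20.9 to 21.9 in the IRF4 day 1 libraries and 15.0 to 16.9 in those of day 3, so weaker peaks could enter the lists of day 3. Day 1 replicate 1 stood apart with its short list and put peaks at only 2 of the 8 genes. As a check on the cells, the day 1 group list for IRF4 had peaks at 8 of 10 B cell marker genes and 1 of 6 plasma cell marker genes, and the day 3 list at 4 and 2. None of the 6 T cell or 4 erythroid and liver marker genes had an IRF4 peak in these lists. PU.1 had peaks at all 10 B cell marker genes and also at 5 of the 6 T cell and 3 of the 4 erythroid and liver marker genes on each day. These lists show where the factors sat and are no measure of cell identity. The part of list length and lowest enrichment in the results was not tested.

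S1pr1, the egress receptor, carried the strongest PU.1 site of the 8 genes. It lies 14.3 kb upstream of the start of S1pr1 (chromosome 3, position 115432286), in sequence with no annotated gene. The authors' deposited fold enrichment over input there reached 816 and 1132 in the day 1 PU.1 libraries and 1537 and 869 in the day 3 libraries. These peaks ranked 32, 20, 22 and 83 in lists of 27321 to 38052 peaks, so no more than 0.241% of the peaks of a list were stronger. IRF4 was called at the same place in all 3 day 1 libraries, at 31.8, 77.8 and 38.0, and in 2 of 3 day 3 libraries, at 36.6 in replicate 1 and 21.0 in replicate 3. Day 3 replicate 2 had no IRF4 peak there. Day 1 replicate 1 called 2 sites near the 8 genes, this one and 1 in the Ubac2 intron near Gpr183. The EICE GGAAGTGAAA sits at chr3:115432283-115432292, with its centre 2 bp from the PU.1 position and 13 bp from the IRF4 position.

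A further S1pr1 site lay 12.9 kb downstream of the start, beyond the end of the gene. IRF4 was called there in 2 day 1 libraries, replicate 2 at 33.9 and replicate 3 at 40.1, and in no day 3 library. PU.1 was called in all 4 libraries, at 89.4 and 176 on day 1 and at 135 and 156 on day 3. Here the element was GGAAGAGAAA. PU.1 was also called in every library 4.8 kb from the start, just past the end of S1pr1, where the same letters GGAAGAGAAA occur 3 bp from the PU.1 position. IRF4 was called at that place in 1 library, day 3 replicate 3, at 15.5. The 11 PU.1 sites of S1pr1 included 5 found in every library and 5 found in 1 library.

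S1pr2, the receptor that confines germinal centre B cells, had the fewest PU.1 sites of the 8 genes, 4 in all, with 1 peak in day 1 replicate 1 and 4 in each of the other PU.1 libraries. The leading PU.1 site of a gene is taken as that called in the most libraries, ties being settled by the mean percentile of its enrichment. For S1pr2 it lay 3.2 kb upstream, with enrichments of 19.6 and 37.1 on day 1 and of 47.9 and 59.9 on day 3. The other 3 sites were absent from day 1 replicate 1 and called in the remaining 3 PU.1 libraries. One of them, 23.9 kb from the S1pr2 start, lies at the start of the neighbouring gene Dnmt1, the maintenance DNA methyltransferase. IRF4 had a single peak in the S1pr2 window, in day 1 replicate 3, at 23.6. Neither factor's S1pr2 windows held an EICE.

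Cxcr5, the follicle receptor, had 14 PU.1 sites spread from 18.6 kb upstream to 33.4 kb downstream of its start. PU.1 peaks numbered 8 and 10 in the day 1 libraries and 10 and 9 in the day 3 libraries. Its leading PU.1 site, in an intron 12.1 kb from the start, had enrichments of 44.8 and 35.6 on day 1 and of 89.3 and 83.0 on day 3, and between 18.5 and 42.6% of the peaks in those lists were stronger. Other Cxcr5 sites were stronger in single libraries, such as the one 11.7 kb upstream at 107 in day 3 replicate 1. The window of the leading site, in the intron, holds GAAAGAGAAA at chr9:44322400-44322409. It is a match to the interferon-stimulated response element (ISRE, which is GAAA, any 2 bases and GAAA). The day 3 values were above the day 1 values at this site, but enrichments belong to their own lists and no day difference is read from them.

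IRF4 had 9 Cxcr5 sites, and 7 of them appeared in 1 library only. The most repeated was 11.6 kb upstream, called in day 1 replicates 2 (39.7) and 3 (31.9) and in day 3 replicates 2 (17.9) and 3 (40.3). PU.1 was called there in all 4 libraries, at 38.4 and 40.2 on day 1 and at 107 and 56.9 on day 3. The median distance between the IRF4 and the PU.1 positions was 112.5 bp, against 9 bp at the Ccr7 upstream site. The closest string to an EICE in that window, TGCAGTGAAA, differs by G1T and A3C. The PU.1 site farthest out, 18.7 kb from the end of Cxcr5, is the closest to the edge of the distance rule from within among the PU.1 sites found in at least 2 libraries.

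Ccr7, the receptor for the T cell zone, was bound by both factors far upstream and by PU.1 at its start. At the site 13.0 kb upstream, IRF4 was called in day 1 replicates 2 (53.1) and 3 (49.1) and in all 3 day 3 libraries (22.5, 19.3 and 47.2). PU.1 enrichments at the same place were 202 and 402 on day 1 and 499 and 502 on day 3, and no more than 5.38% of the peaks in any of those lists were stronger. Its window holds no exact match to any of the listed motifs. At the start of Ccr7, 2 bp upstream, PU.1 enrichments were 78.9 and 92.2 (day 1) and 235 and 147 (day 3). The PU.1 site GAGGAAGT lies there at chr11:99016395-99016402, and no IRF4 peak was called there.

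Inside Ccr7, 4.4 kb from the start in an intron, IRF4 was called in 4 libraries. The values were 41.0 and 30.5 on day 1 (replicates 2 and 3), 22.2 in day 3 replicate 1 and 15.0 in day 3 replicate 3, the last being the lowest value of that list. PU.1 was called at this intron site in 1 of 2 libraries on each day. The window holds GAAATGAGTCA at chr11:99011945-99011955, an AP-1-IRF composite element (AICE). The AICE searched was the AP-1 site TGANTCA with GAAA joined directly before it, or with TTTC and any 4 bases before it, so each AICE holds an AP-1 site. It was the only AICE among the 17 IRF4 sites called in at least 2 libraries. Another Ccr7 site, 10.4 kb from the start in its untranslated region, was called by IRF4 in 2 day 1 libraries at 25.3 and 29.2, in no day 3 library, and by PU.1 in none.

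Ccr6, the CCL20 receptor, had the highest mean number of IRF4 peaks of the 8 genes, with 0, 4 and 3 in the day 1 libraries and 2, 1 and 7 in those of day 3. Without day 3 replicate 3 its mean was 2.0 and that of Ccr7 was 2.4, so this order rested on 1 library. Its mean over all 6 libraries, 2.83 ± 2.48 (SD, n = 6), was reached by 0.495% of all genes. It also had the highest PU.1 mean of the 8, 11.75 ± 2.06 (SD, n = 4), which 1.10% of all genes reached. All 14 of its PU.1 sites were found in at least 2 libraries. The most repeated IRF4 site lay 1.4 kb upstream, at 63.7 and 78.4 in day 1 replicates 2 and 3 and at 30.6, 17.1 and 37.8 on day 3. PU.1 was called in all 4 libraries there (68.1, 114, 114 and 93.7), a median of 8 bp from the IRF4 position. The element GGAAATGAAA of that window lies 91 bp from the IRF4 position, at the edge of the 200 bp searched.

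The site 3.9 kb upstream was the only 1 of the 17 called by IRF4 in 2 day 3 libraries (17.1 and 22.2) and in no day 1 library. The value of 17.1 lies below the lowest enrichment listed in any day 1 IRF4 library, and 22.2 lies just above it. PU.1 was called there in every library of both days, at 183, 294, 290 and 327, the strongest PU.1 site of Ccr6 in each of the 4 libraries. The element GGAACAGAAA lies 3 bp from the PU.1 position. Of the 3 other Ccr6 sites that IRF4 shared between 1 library of each day, those 10.3 kb upstream and 19.5 kb downstream of the start had PU.1 in every library, and the one 2.0 kb downstream had PU.1 in 3.

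Cxcr4, the CXCL12 receptor, had its leading PU.1 site in its own intron, 1.4 kb from the start. The 2 PU.1 libraries of day 1 gave enrichments of 282 and 424, and those of day 3 gave 1137 and 578. IRF4 was called at 23.6 in day 1 replicate 3 and at 23.5 and 23.4 in day 3 replicates 1 and 2. On the minus strand the intron reads GGAAGTGAAA at chr1:130487520-130487529, which overlaps the PU.1 site GAGGAAGT at chr1:130487524-130487531. The same 10 letters occur in the site 15.9 kb upstream, at chr1:130504856-130504865, where IRF4 was called in 1 library of each day (41.0 and 29.7) and PU.1 in every library at 151 to 278.

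Of the IRF4 sites of Cxcr4, the one most distant from the start, 19.6 kb upstream, was called in IRF4 libraries of day 1 only, at 50.3 in replicate 2 and 25.7 in replicate 3. PU.1 had a peak there in 1 library, of day 3. This site is the closest to the edge of the distance rule from within among IRF4 sites found in at least 2 libraries. The nearest outside was 21.2 kb from Gpr183, with IRF4 in 1 library of each day. For PU.1 the nearest outside lay just past 20 kb upstream of S1pr1, called in both day 3 libraries only.

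Gpr183, the oxysterol receptor, lies within an intron of Ubac2, a gene on the other strand, so its sites cannot be assigned to 1 of the genes by distance. It had 15 PU.1 sites, the most of the 8 genes, of which 6 were found in every library. The strongest lay 26.4 kb from its start, past its end, at 505 and 536 on day 1 and 703 and 601 on day 3. No more than 0.959% of the peaks in any of those lists were stronger. IRF4 was called 219 bp from that PU.1 position in day 1 replicate 1 (25.0) and 241 bp from it in day 3 replicate 1 (35.9), beyond the 200 bp that counts as shared. Day 1 replicate 3 had an IRF4 peak 16 bp from the PU.1 position, with an enrichment of 42.8.

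In an intron of Gpr183, 9.6 kb from the start, both factors were called and 2 elements, GGAAATGAAA and GGAACTGAAA, were found. IRF4 was called there in day 1 replicate 3 (32.0) and day 3 replicate 3 (18.2), and PU.1 in every library. At the start of Gpr183, 17 bp upstream, PU.1 enrichments were 85.9 and 76.2 (day 1) and 121 and 98.1 (day 3), with no IRF4 peak. None of these IRF4 peaks entered the group lists, although 5 of 6 IRF4 libraries had at least 1 peak at Gpr183.

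Cxcr3, the receptor for interferon-induced chemokines, had 6 PU.1 sites, 4 of them in 1 library only. The 1 found in every library lay 101 bp inside the gene in its untranslated region, at 37.8 and 51.0 on day 1 and 77.7 and 56.2 on day 3. Its window holds GAGGAAGT at chrX:98929495-98929502. IRF4 had 1 peak at Cxcr3 in all, in day 1 replicate 2, at 28.2. Cxcr3 and S1pr2 thus had 1 IRF4 peak each over 6 libraries, a mean that 49.8% of all genes reached.

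**Figure D1:**
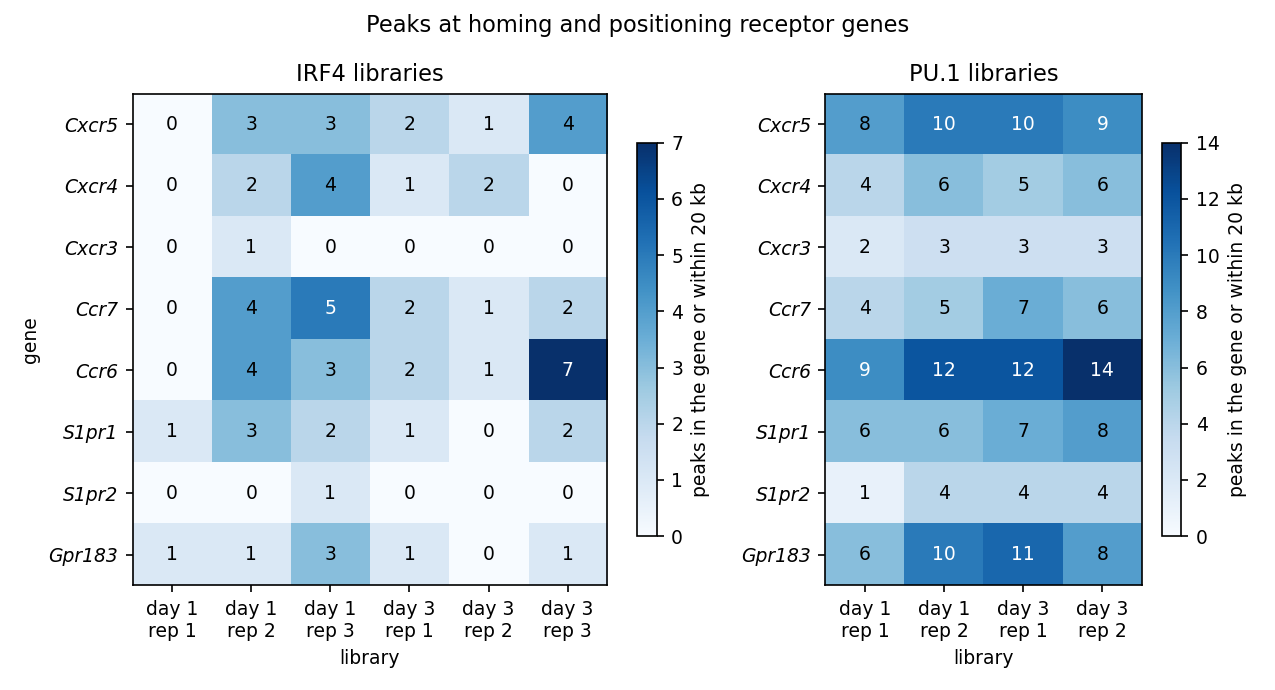
Number of peaks in or within 20 kb of each of the 8 genes (rows) in each library (columns), for IRF4 (6 libraries) and PU.1 (4 libraries), with the count printed in each cell and shown by shade. Ccr6 has the most PU.1 peaks, 9 to 14 per library, and S1pr2 and Cxcr3 the fewest, and no IRF4 library has more than 7 peaks at a gene.

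**Figure D2:**
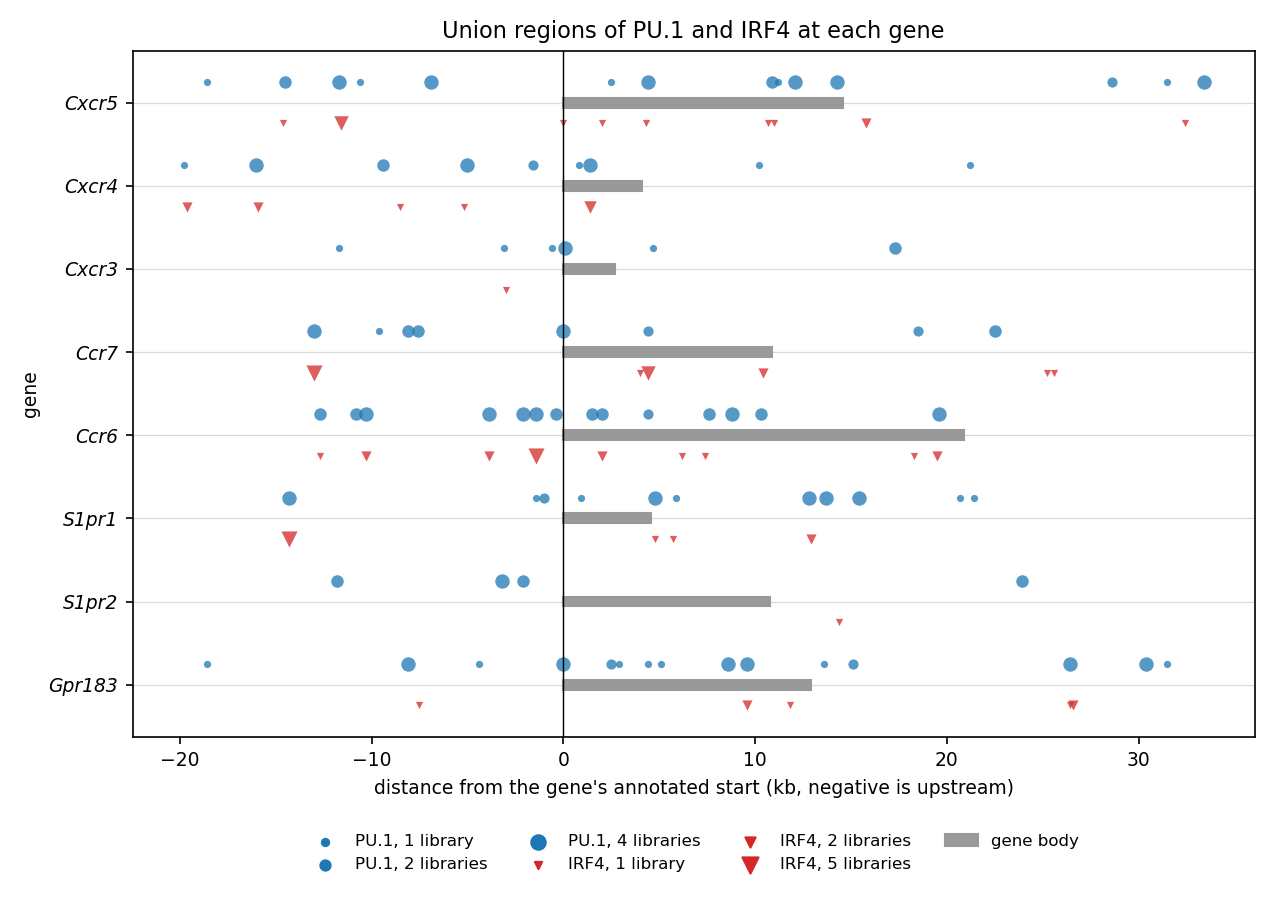
Position of each site relative to the start of its gene in kb (x axis; negative values are upstream) for the 8 genes, with circles for PU.1, triangles for IRF4, symbol size for the number of libraries that called the site and grey bars for the gene bodies. The sites called most often by IRF4 lie upstream, 14.3 kb from S1pr1, 13.0 kb from Ccr7 and 1.4 kb from Ccr6.

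**Figure D3:**
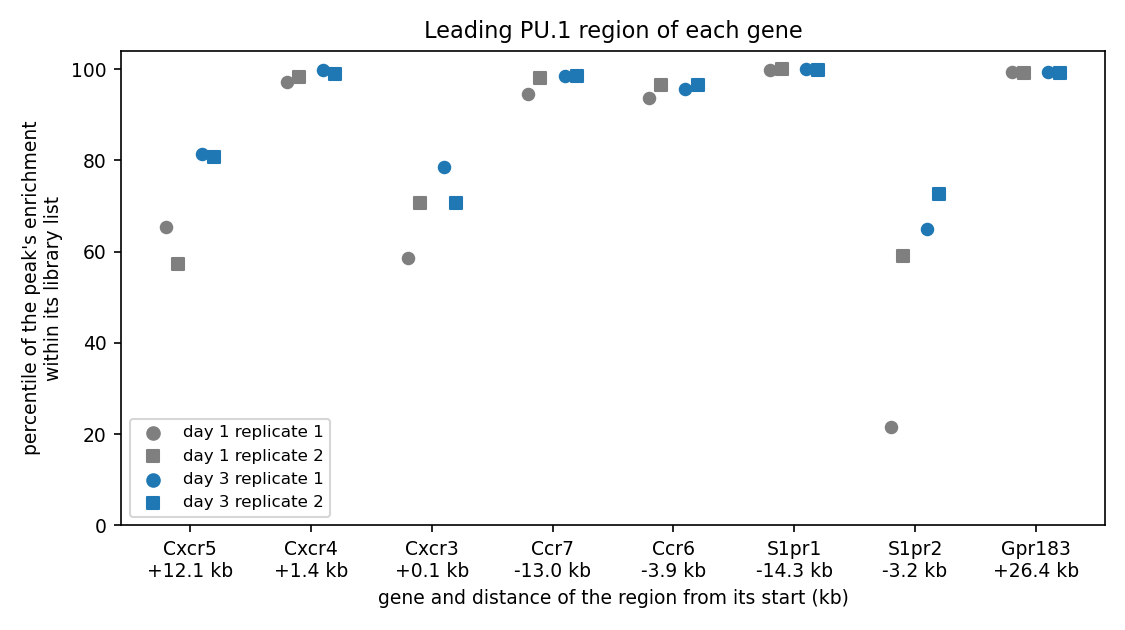
Percentile of the leading PU.1 site of each gene among all peaks of the same library (y axis, in percent), 1 point per PU.1 library. The S1pr1 site 14.3 kb upstream lies between 99.8 and 99.9 in the 4 libraries, and the Cxcr3, Cxcr5 and S1pr2 sites lie lower and vary more between libraries.

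By number of PU.1 peaks per library, the order of the 8 genes was Ccr6 (11.75 ± 2.06), Cxcr5 (9.25 ± 0.957), Gpr183 (8.75 ± 2.22), S1pr1 (6.75 ± 0.957), Ccr7 (5.5 ± 1.29), Cxcr4 (5.25 ± 0.957), S1pr2 (3.25 ± 1.5) and Cxcr3 (2.75 ± 0.5; SD, n = 4 each). Every pair of neighbours in this order overlapped in library values, while Ccr6, with 9 to 14 peaks, lay clear of Cxcr3, with 2 or 3. A longer gene offers a wider stretch to the rule, and these counts were not scaled by length. By IRF4 peaks the means ran from 2.83 at Ccr6, 2.33 at Ccr7 and 2.17 at Cxcr5 to 0.167 at Cxcr3 and S1pr2. Their SDs were 0.408 to 2.48, and day 1 replicate 1 held 0 peaks at 6 of the 8 genes.

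Across libraries, peaks within 200 bp of each other were joined into sites. IRF4 had 40 sites near the 8 genes. Of these, 23 (57.5%) came from 1 library, against 79.1% of all 20058 IRF4 sites, and 17 were found in at least 2 libraries, as 20.9% of all sites were. None was found in all 6 libraries (1.46% of all sites). Sites in 5 libraries numbered 3 and those in 2 libraries 11. Leaving out any 1 IRF4 library left 10 to 16 sites in at least 2, with the lowest number, 10, when day 1 replicate 3 was left out.

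PU.1 had 81 sites near the 8 genes, of which 30 (37.0%) were found in all 4 libraries, as 24.7% of all 57563 PU.1 sites were. In all, 55 (67.9%) were found in at least 2 libraries, as 63.2% of all PU.1 sites were. The 30 were 14 upstream, 9 within a gene and 7 downstream. Within 1 kb of a start lay 3 of the 30, those of Ccr7, Gpr183 and Cxcr3. IRF4 had a site at 15 of the 30. For these 2 counts the matching shares over all PU.1 sites found in every library are not given. Among PU.1 sites in at least 2 libraries, 38.2% of those near the 8 genes had an IRF4 peak, against 16.7% of all.

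IRF4 and PU.1 shared many of the sites near these genes. Of the 40 IRF4 sites, 25 (62.5%; Wilson 95% interval 47.0 to 75.8%, for counting error only) had a PU.1 peak within 200 bp, compared with 35.1% of all IRF4 sites. Among sites in at least 2 libraries the share was 14 of 17 (82.4%), compared with 73.0% overall. When PU.1 was required in every library the share was 37.5%, compared with 18.1% of all IRF4 sites. PU.1 was found in all 4 libraries at 11 of the 17, a count for which no matching share over all IRF4 sites is given. The 3 without any PU.1 peak were those 10.4 kb into Ccr7, 26.6 kb below the Gpr183 start and 15.8 kb below the Cxcr5 start. Conversely, 24 of the 81 PU.1 sites (29.6%) had an IRF4 peak, compared with 12.2% of all PU.1 sites. No test was made of these shares.

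**Figure D4:**
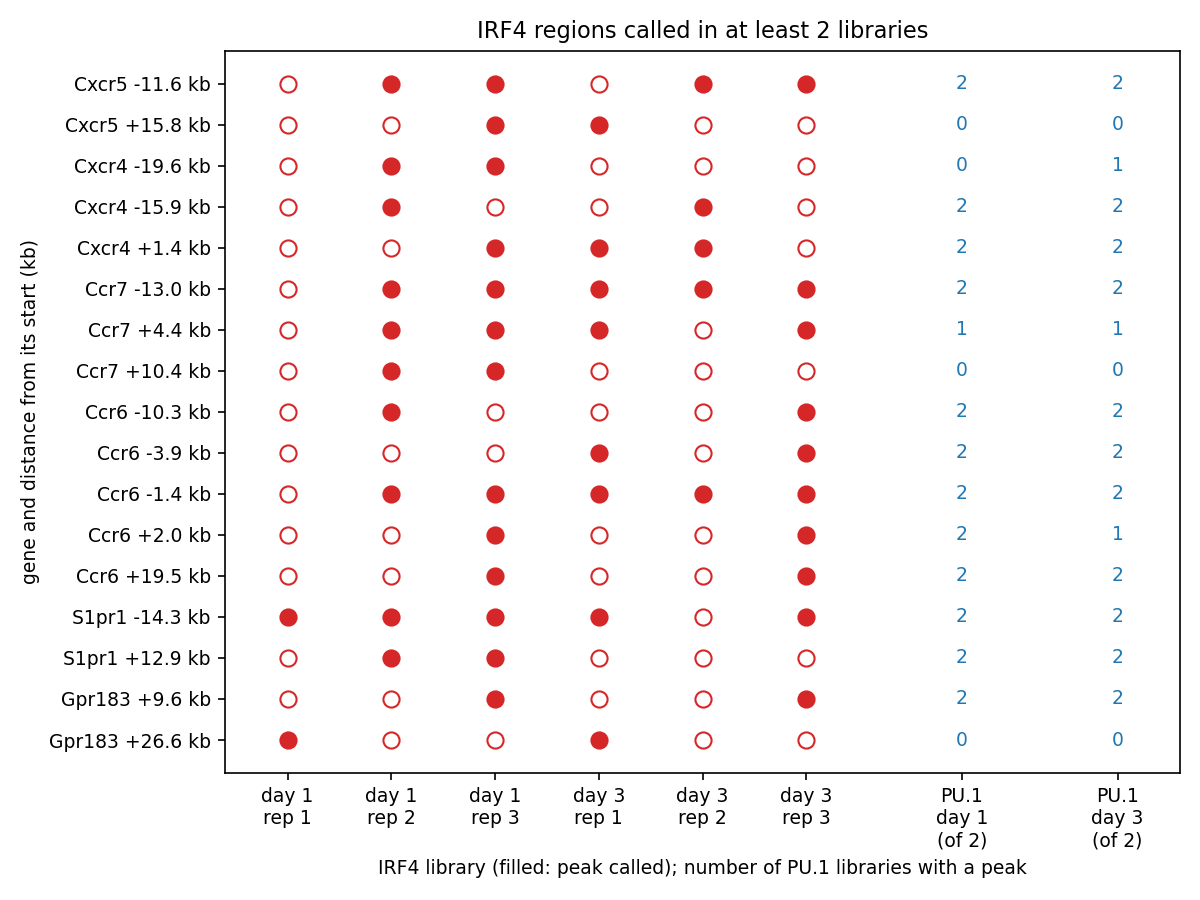
The 17 IRF4 sites found in at least 2 libraries, 1 row each, with filled cells for the IRF4 libraries that called a peak and, at the right, the number of PU.1 libraries with a peak on each day. PU.1 was called in all 4 libraries at 11 of the 17 sites and at none of 3.

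Of the motifs searched, the EICE was the most frequent in the 17 IRF4 sites. It was present in 7 of 17 windows (41.2%), against 22.5% of all 4189 IRF4 sites found in at least 2 libraries and 2.06% of windows 2 kb away from all IRF4 sites. All 7 had PU.1 in all 4 libraries, a count for which no matching share over all IRF4 sites with an EICE is given. The 7 were both S1pr1 sites, 2 of 3 Cxcr4 sites, 2 of 5 Ccr6 sites and the Gpr183 intron site. With any 1 IRF4 library left out, 5 to 7 of the sites still found in at least 2 libraries held the element. AP-1 sites (TGANTCA) were present in 1 of 17 (5.88%, against 25.9% overall), and the ISRE in none (10.5% overall). The form GGAAGTGAAA, with GT between the Ets and IRF parts, made up 3 of the 7 sites with an EICE (42.9%), against 34.6% of all such sites. With 1 mismatch allowed, 13 of 17 windows (76.5%) held the element, against 63.8% overall.

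Of the 30 PU.1 sites found in every library, 8 (26.7%) held an EICE, against 15.2% of all PU.1 sites found in every library. The PU.1 site GAGGAAGT was in 6 of 30 (20%, against 26.9%), an ISRE in 1 (3.33%, against 5.94%) and an AP-1 site in none (8.20%). GAGGAAGT and the EICE can share bases, as at the Cxcr4 intron. The counts are small and were not tested.

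Between the days, the number of IRF4 peaks near the 8 genes was 2, 18 and 21 in the day 1 libraries and 9, 5 and 16 in the day 3 libraries. The means, 13.7 ± 10.2 and 10 ± 5.57 (SD, n = 3), differed by -3.67 with overlapping values (exact permutation test, two-sided, p = 0.7, adjusted p = 0.7 over 5 tests). Without day 1 replicate 1 the difference was -9.5, and without day 1 replicate 3 it was 0. As a share of each library's peaks, these were 0.242, 0.193 and 0.235% on day 1 and 0.323, 0.355 and 0.286% on day 3, which did not overlap. The difference of 0.0979 percentage points had an exact permutation p of 0.1, the smallest that 3 against 3 libraries allow (adjusted p = 0.25).

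PU.1 peaks numbered 40 and 56 on day 1 and 59 and 58 on day 3, means of 48 ± 11.3 and 58.5 ± 0.707 (SD, n = 2). Their shares were 0.146 and 0.147% on day 1 and 0.171 and 0.170% on day 3, without overlap. Both differences, 10.5 peaks and 0.0241 percentage points, had an exact permutation p of 0.333, the smallest possible for 2 against 2 (adjusted p = 0.417). The difference in peaks was 18.5 without day 1 replicate 2 and 2.5 without day 1 replicate 1. Whether the day difference itself differed between the factors was tested by exact permutation of the days within each factor, with p = 0.133 for the share and p = 0.233 for the peaks.

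The 8 genes held 0.272 ± 0.0603% of the peaks of the 6 IRF4 libraries and 0.159 ± 0.0139% of those of the 4 PU.1 libraries (SD). All 6 IRF4 shares were above all 4 PU.1 shares. The difference of 0.114 percentage points had an exact permutation p of 0.0143 over 210 splits and an adjusted p of 0.0714, which did not pass the threshold of 0.05. Without IRF4 day 1 replicate 2 the difference was 0.130 with an adjusted p of 0.0397. IRF4 lists were shorter than PU.1 lists throughout, and the part of list length was not tested. With each list cut to the length of the shortest list of its own factor, the difference was 0.0952 (exact permutation p = 0.081). That left 825 peaks per IRF4 list and 27321 per PU.1 list, so list length still differed between the factors.

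**Figure D5:**
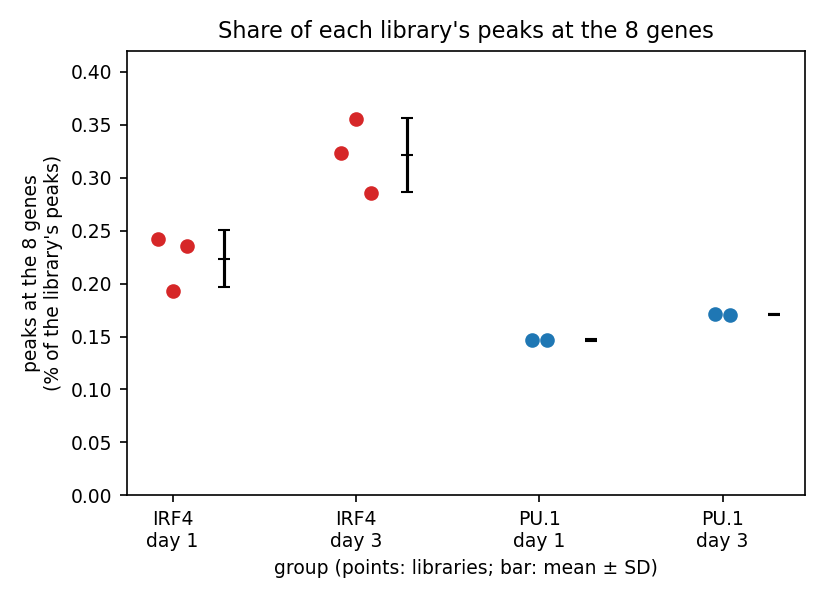
Share of each library's peaks that lie within 20 kb of the 8 genes (y axis, in percent), 1 point per library by factor and day, with bars for the mean ± SD. IRF4 shares run from 0.193 to 0.355% and PU.1 shares from 0.146 to 0.171%.

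Sites tied to 1 day were few. IRF4 had 3 of 40 sites in at least 2 day 1 libraries and no day 3 library (7.5%, 4.18% of all IRF4 sites) and 1 of 40 in the reverse (2.5%, 1.97% of all). The 3 were those at Cxcr4 19.6 kb upstream, S1pr1 12.9 kb downstream and Ccr7 10.4 kb downstream of the start, and the 1 was at Ccr6 3.9 kb upstream. PU.1 had 6 of 81 sites in both day 3 libraries and neither day 1 library (7.41%, 3.78% of all PU.1 sites) and 0 in the reverse (2.38% of all). The 6 lay 18.5 kb below the Ccr7 start, 15.1 and 2.5 kb below that of Gpr183, 4.4 kb below that of Ccr6, 28.6 kb below that of Cxcr5 and 1.0 kb above that of S1pr1. None of the 6 coincided with an IRF4 site, where 16.7% of all PU.1 sites in at least 2 libraries had an IRF4 peak. The share over all PU.1 sites tied to day 3 is not given, so nothing is read from this. The counts of PU.1 sites tied to 1 day rested on single libraries. Without day 1 replicate 1, whose list was the shortest, 8 of 79 PU.1 sites were tied to day 3 (10.1%, against 6.82% of all PU.1 sites) and 10 to day 1 (12.7%, against 15.8%). Without day 1 replicate 2 there were 16 of 71 (22.5%, against 11.1%) and 2 (2.82%, against 6.16%). Without day 3 replicate 1 there were 10 of 71 (14.1%, against 11.9%) and 0 (against 5.57%). Without day 3 replicate 2 there were 16 of 77 (20.8%, against 19.5%) and 5 (6.49%, against 11.9%).

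The wider pathway was read from lists of related genes, by their group-list peaks, beside shares over all genes of 10.0% and 8.47% for IRF4 and 52.3% and 54.4% for PU.1 on day 1 and day 3. Of 22 other chemoattractant receptors, 10 had an IRF4 peak on day 1 and 6 on day 3, and 19 and 17 had a PU.1 peak. Ackr2 (Ccbp2 in the annotation), an atypical receptor that clears chemokines, and Ptger4, a prostaglandin receptor, had IRF4 peaks in all 6 libraries. Of 23 genes for receptor signalling and its regulators, 9 had an IRF4 peak on day 1 and 5 on day 3, and 22 and 23 had a PU.1 peak. Klf2, a transcription factor that upholds S1pr1 in resting lymphocytes, and Foxo1, a transcription factor upstream of Klf2, had IRF4 peaks in all 6 libraries, and so did Elmo1, a factor for Rac activation. For peaks in all 6 libraries no share over all genes is given. These genes are therefore only listed, and not read as bound more often than others. Cd69, whose product removes S1PR1 from the surface, had an IRF4 peak in 1 library, of day 3.

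Among 16 adhesion and homing molecules, 8 had an IRF4 peak on day 1 and 5 on day 3, and 15 and 16 had a PU.1 peak. Rap1a, a small GTPase in integrin activation, had IRF4 peaks in all 6 libraries, again with no share over all genes beside it. Of 14 genes for the ligands and the enzymes that make them, 3 had an IRF4 peak on day 1 and 1 on day 3. A PU.1 peak lay at 6 and 5 of them. The shares over all genes were 10.0% and 8.47% for IRF4 and 52.3% and 54.4% for PU.1. The ligand genes had a median of 0 PU.1 peaks on each day, the 8 receptor genes 4.5 on day 1 and 5.5 on day 3, and all genes 1 on each day.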

How the data were processed

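The authors mapped reads of libraries of about 250 bp fragments to mm9 and scored enrichment over input DNA with QuEST, per the series' design text. The submitters' processing notes name mm9. The sources used here name no aligner, QuEST version or threshold. Every deposited list gives, per peak, a position and the authors' maximum fold enrichment, a linear ratio to input, which served only to describe and rank peaks inside 1 list. The lists hold no read counts, so depth is unknown. There were 10 library lists, called per library, and 4 group lists, whose lines are copies of library lines. Of the lines at the 8 genes in the PU.1 group lists, all came from replicate 1. Repeated lines (7 and 5 in the PU.1 group lists of day 1 and day 3) were counted once.

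Genes and their starts were from GENCODE M1 (mm9), the longest entry per symbol, without the Y chromosome and the mitochondrial genome. Peaks with positions less than 200 bp apart were joined into sites, and a PU.1 and an IRF4 site were shared at the same distance. The search for motifs covered both strands of 200 bp centred on each position: EICE, ISRE, AICE, AP-1 (TGANTCA) and the PU.1 site (GAGGAAGT). Motif coordinates count from 1; for deposited positions the base of counting is not stated. Sites named were those of IRF4 in at least 2 libraries and the leading PU.1 site of each gene, with the PU.1 sites at gene starts and those tied to 1 day. Some further sites were named outside this rule, such as single-library IRF4 peaks and the PU.1 site 4.8 kb from the S1pr1 start.

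Libraries were compared by two-sided exact permutation tests, adjusted by Benjamini-Hochberg over 5 tests, with Python 3.11.15, numpy 2.4.6 and scipy 1.17.1. The scripts were tested on simulated lists. Replicate numbers are those of the sample descriptions. Titles number some libraries differently, and 2 titles carry a pair of numbers. Since no label gives the animal or culture behind a replicate, the p-values reflect only how these libraries vary among themselves, which may be technical. Input libraries are not analysed here. The members, gene lists and tests were chosen with earlier results of these data known. Alternatives were the distance to the gene, the distance for shared peaks, the strength of peaks and list length within each factor. Each library was also left out in turn, and a replicate block was used. Region counts with libraries left out were added after seeing the data.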

Additional observations from a re-analysis of the deposited data

How the results depend on the processing

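The difference in IRF4 peaks at the 8 genes between days (-3.67) reversed at 5 kb (0.667) and with an equal number of the strongest peaks per list (1), and with 1 library left out it ran from -9.5 to 0. The difference in IRF4 share (0.0979) reversed among the stronger 50% of peaks (-0.0447) and ran from 0.0811 to 0.116 with 1 library left out. The excess of the IRF4 share over the PU.1 share (0.114) kept its sign in every alternative run. It passed the threshold at 50 kb (0.179, exact permutation test, adjusted p = 0.0476) and without IRF4 day 1 replicate 2. It shrank to 0.0455 at 5 kb (exact permutation p = 0.319) and to 0.0476 among the stronger 50% of peaks (exact permutation p = 0.152). With 1 library left out it ran from 0.0971 to 0.130, and its adjusted p over all alternatives ran from 0.0397 to 0.625. The PU.1 differences kept their sign, from 2.5 to 18.5 peaks and from 0.0235 to 0.0247 percentage points with 1 library left out. The PU.1 share difference fell to 0.0153 at 5 kb and 0.0128 with an equal number of the strongest peaks, and the peak difference to 6.5 and 3.5.

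Of the 8 genes, IRF4 bound 2 on day 1 and 3 on day 3 at 5 kb, and 7 and 6 at 50 kb. Among the stronger 50% of peaks it bound 5 on day 1 and 2 on day 3. With a peak in at least 2 library lists required, it bound 6 on each day. With 1 library left out and the list rebuilt, 1 to 5 were bound on day 1 and 3 in each case on day 3. PU.1 bound 7 or 8 throughout, and no count was made with 1 PU.1 library left. For these alternative rules no share over all genes is given, so the counts show only how the numbers for the 8 genes changed. The share of IRF4 sites with PU.1 (62.5%) was 37.5% when PU.1 was required in every library, and 52.5 to 68.75% with 1 library left out. It was 48.8% with peaks shared under 100 bp and 69.4% under 500 bp. No matching share over all IRF4 sites is given for these distances. IRF4 sites in at least 2 libraries numbered 10 to 16, PU.1 sites tied to day 3 numbered 8 to 16 and those tied to day 1 numbered 0 to 10 with 1 library left out. The cause of these changes was not tested, beyond the fewer libraries. Unknown depth limits all counts, since a site missing from a short list may have been bound.

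Whether replicate numbers pair the libraries could not be settled. Same-numbered IRF4 libraries of the 2 days had correlations of -0.268, 0.0768 and -0.103, and differently numbered ones ran from -0.343 to 0.437. PU.1 libraries had -0.00274 with the same number and 0.00274 with different numbers. These correlations were used only to look for pairing, and agreement between libraries is not read from them. With 2 PU.1 libraries per day, values equal in size and opposite in sign cannot show pairing. With the replicate number as a block the IRF4 differences were -3.67 peaks (exact permutation p = 0.75) and 0.0979 percentage points (p = 0.25). The PU.1 differences were 10.5 peaks and 0.0241 percentage points (exact permutation p = 0.5 each). The smallest p that the block allows is 0.25 for IRF4 (8 splits) and 0.5 for PU.1 (4 splits). No block test could therefore pass the threshold, and the block cannot show whether the calls hold.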
